A study of Homo sapiens with 41 samples.

Results

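The clustered replication-dependent histone genes were examined in the line MDA-MB-231, which derives from human breast epithelium and is triple-negative, lacking oestrogen receptor, progesterone receptor and HER2. They were the protein-coding genes on chromosomes 1 and 6 whose symbol starts with H1-, H2AC, H2BC, H3C or H4C and a digit, 68 of the 19974 protein-coding genes on chromosomes 1 to 22 and X in the RefSeq gene table of GRCh38. A gene was read together with 500 bp on each side. Of the 68 genes, 55 lie in the large cluster at 6p22 on chromosome 6, 11 in the cluster at 1q21 and 2 (H2AC25 and H2BC26) at 1q42. They comprised 18 H2B, 17 H2A, 14 H4, 13 H3 and 6 H1 genes, and all 6 H1 genes lie at 6p22.

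These genes encode the linker histone H1 and the core histones H2A, H2B, H3 and H4. They are transcribed mainly in S phase, when new DNA has to be packaged, and most of their mRNAs end in a stem-loop bound by SLBP in place of a poly(A) tail. NPAT, a substrate of cyclin E with CDK2, gathers the clusters in the histone locus body, and HINFP at H4 genes and POU2F1 at H2B genes are among the promoter-binding factors. HDAC6 is a mainly cytoplasmic deacetylase known for acting on tubulin and HSP90.

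Peak lists of 32 of the 41 samples were used. Groups with the HDAC6 inhibitor Nexturastat A (NextA, 5 µM for 2 days) were set against Ctrl cells, and cells with a hairpin against HDAC6 (shHDAC6) against cells with a control hairpin (shCtrl); 100000 cells went into each ChIP or ATAC library. HDAC6 ChIP had 2 lists each from NextA, shHDAC6 and Ctrl cells, of which the first NextA and Ctrl lists came from the CST antibody and the other lists from the Novus antibody, and HDAC6 CUT&Tag had 2 lists from Ctrl cells. Pan-acetyl ChIP, with an antibody to several acetylated lysines of histone H3, had 2 lists each from NextA and Ctrl cells. RNA polymerase II (PolII) ChIP, with an antibody to the tail of its largest subunit Rpb1, had 2 lists in each of the 4 conditions, and ATAC, which maps accessible chromatin, 3 lists in each. The sources used here do not say how many clones or hairpins the knockdown line holds, or that replicates are separate cultures, so p-values measure the spread between these lists, which may be technical. In the NextA Novus list the peak names start as they do in PolII lists of shCtrl cells, and in CUT&Tag list 2 they start with letters of a control hairpin. The labels were followed for these 2 lists. The 8 HDAC6 lists held between 235 and 63833 peaks each, the 4 pan-acetyl lists between 1418 and 61186, the 8 PolII lists between 19519 and 31198, and the 12 ATAC lists between 25878 and 79666. Since the lists carry no read depth, a gene without a peak is one where none was called. Of 8 genes listed as markers of a mesenchymal-like breast line, including VIM, EGFR, KRT8 and KRT18, 7 had PolII in all 8 lists, and CD44 in 6. Of 5 luminal genes 0 had it in all 8, but GATA3 had it in 7, KRT19 in 4, PGR and CDH1 in 2 and ESR1 in 1. It was in all 8 lists at 0 of 4 leukocyte, 0 of 3 fibroblast and 1 of 3 neuron markers (SYP). RBFOX3, GRIN1 and the fibroblast marker PDGFRA had it in 6, so these markers do not separate cell types cleanly. The HDAC6 gene itself had PolII in 8 of 8 lists and ATAC peaks in 12 of 12, which are not measures of its protein.

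Promoter sequences were found for 63 of the 68 genes, and pairs that contrast in their peaks are shown for the 180 bases before the start (RefSeq, GRCh38.p14, 5′ to 3′ along the gene). Capitals mark matches, on either strand, to the TATA box TATAAA, the CCAAT box, the octamer ATGCAAAT and the H1 box AAACACA. H2BC17 had peaks in 26 of the 32 lists and H2BC10 in 0, H4C8 in 26 and H4C6 in 0, and H1-4 had PolII in all 8 lists whereas H1-1 had it in 0. The last pair, H3C14 and H3C15 at 1q21, is shown because the sequences are identical once shifted by a few bases.
H2BC17, chr6:27893245-27893424, plus strand: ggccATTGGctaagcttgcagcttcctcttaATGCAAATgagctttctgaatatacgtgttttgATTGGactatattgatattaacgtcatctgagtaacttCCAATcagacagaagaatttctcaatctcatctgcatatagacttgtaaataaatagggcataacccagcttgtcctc
H2BC10, chr6:26272751-26272930, plus strand: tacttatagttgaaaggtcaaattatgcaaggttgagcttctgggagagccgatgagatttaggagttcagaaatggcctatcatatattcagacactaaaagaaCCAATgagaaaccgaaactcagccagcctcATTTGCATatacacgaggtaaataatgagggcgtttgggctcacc
H4C8, chr6:26285535-26285714, minus strand: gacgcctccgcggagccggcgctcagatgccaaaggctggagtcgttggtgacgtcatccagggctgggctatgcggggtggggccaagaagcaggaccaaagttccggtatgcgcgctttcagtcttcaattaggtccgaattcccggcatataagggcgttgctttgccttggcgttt
H4C6, chr6:26240213-26240392, plus strand: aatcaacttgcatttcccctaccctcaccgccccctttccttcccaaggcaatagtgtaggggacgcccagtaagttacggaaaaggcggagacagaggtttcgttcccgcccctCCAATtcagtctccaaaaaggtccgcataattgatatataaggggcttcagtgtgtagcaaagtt
H1-4, chr6:26156149-26156328, plus strand: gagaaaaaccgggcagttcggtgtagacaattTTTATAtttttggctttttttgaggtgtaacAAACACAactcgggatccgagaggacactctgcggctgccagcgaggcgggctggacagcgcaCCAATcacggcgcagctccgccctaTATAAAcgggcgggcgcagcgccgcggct
H1-1, chr6:26017788-26017967, minus strand: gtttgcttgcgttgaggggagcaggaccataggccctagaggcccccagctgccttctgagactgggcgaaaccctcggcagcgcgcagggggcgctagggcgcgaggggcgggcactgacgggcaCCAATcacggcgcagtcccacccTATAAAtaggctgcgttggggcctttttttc
H3C14, chr1:149841209-149841388, minus strand: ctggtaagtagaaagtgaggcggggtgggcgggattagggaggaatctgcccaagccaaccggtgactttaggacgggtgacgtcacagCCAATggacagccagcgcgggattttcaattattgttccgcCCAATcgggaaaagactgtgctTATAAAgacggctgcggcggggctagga
H3C15, chr1:149852428-149852607, plus strand: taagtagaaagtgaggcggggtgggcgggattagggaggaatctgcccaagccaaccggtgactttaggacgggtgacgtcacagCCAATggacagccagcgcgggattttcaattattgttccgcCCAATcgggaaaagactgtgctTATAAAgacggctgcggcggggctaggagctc
The octamer and a CCAAT box were present in the sequences of both H2BC17 and H2BC10, so genes with peaks in 26 and in 0 lists shared these letters. The H4C8 sequence held none of the 4 motifs, that of H1-4 held an H1 box and that of H1-1 held it only outside the bases shown. Over 250 bases before to 50 after the start, the octamer was in 41.3% of the 63 histone promoters, against 1.72% of 15813 protein-coding promoters. It was in 77.8% of H2B and 68.8% of H2A promoters, which often share one interval, and in 0 of 12 H4 and 0 of 6 H1 promoters. CCAAT was in 85.7% of histone promoters, against 36.4% of all, and in 3 of 12 H4 promoters. TATAAA was in 65.1%, against 9.75%, and AAACACA in 14.3%, against 4.27%, including 6 of 6 H1 promoters. A promoter was counted for each motif it held, also where matches overlapped. A match describes the letters in the window and is not a binding site.

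The genes are short and packed. Their median length was 494.5 bp, 60 of the 68 were at most 1000 bp long, and their windows merged into 45 regions. In 12 divergent pairs, 11 of them an H2A and an H2B gene, the starts lay 194 to 248 bp apart. The other pair, H3C4 with H2BC7, repeats that of H2AC7 with H2BC7, since H3C4 is annotated from the same start as H2AC7. Their promoter window is the same and was counted for both genes. Hence 1 peak was often counted for 2 genes and at most for 3. Near-identical copies are uncertain, because reads from them may be placed at either copy. H3C14 and H3C15 had 100% identical promoters over 296 compared bases, H2AC18 and H2AC19 over 299 and H4C14 and H4C15 over 300. At 6p22, H4C11 and H4C12 were 98.3% identical over 300 bases. The 5 genes without a promoter sequence could not be compared. H4C15 is annotated over 16753 bp and spans H2AC19 and H3C15, so it shares their peaks. These 6 genes of 1q21 are given apart from the other 5, H2BC18, H3C13, H2BC21, H2AC20 and H2AC21.

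PolII covered most of the genes, and its peaks there ranked high. Over the 8 PolII lists 37 to 53 of the 68 genes had a peak, a share of 54.4% to 77.9% against 62.2% to 74.3% of all protein-coding genes and 9.48% to 13.6% of 464 other genes of at most 1000 bp. In each list 17 to 34 histone genes stood at or above percentile 90 by fold over local background. This fold is the authors' own value for each peak and is used only for ranks within its list. Genes that share a peak are each counted (26 to 35 distinct peaks at histone genes per list), and the share of all genes at this rank was not counted. The median percentile of histone genes with a peak was 83.9 to 96.2, against 66.8 to 79.7 for all genes with a peak, and it was the higher of the 2 in all 8 lists. For the other genes of at most 1000 bp with a peak it was 58.8 to 78.9. Histone gene peaks were also wide, with medians of 1134 to 2106 bp in the lists, against 772 to 1209 bp for all peaks.

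ATAC peaks covered a similar number of genes but ranked below those of all genes. In the 12 ATAC lists 40 to 44 genes had a peak, which is 58.8% to 64.7%, against 66.2% to 77.3% of all genes and 7.97% to 12.7% of the other short genes. The median percentile of the fold was 31.1 to 62.8 for histone genes and 69.6 to 80.7 for all genes with a peak, lower for histone genes in all 12 lists. A gene took its highest fold, so long genes could draw on more peaks. For the other short genes with a peak the median was 34.1 to 73.5, nearer to the histone genes. In NextA list 1 it was 34.1 for these short genes, 33.3 for histone genes and 76.4 for all genes. At most 3 histone genes in a list reached percentile 90, and the share of all genes was not counted here either. The plot of median percentiles shows both orders.

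**Figure D1:**
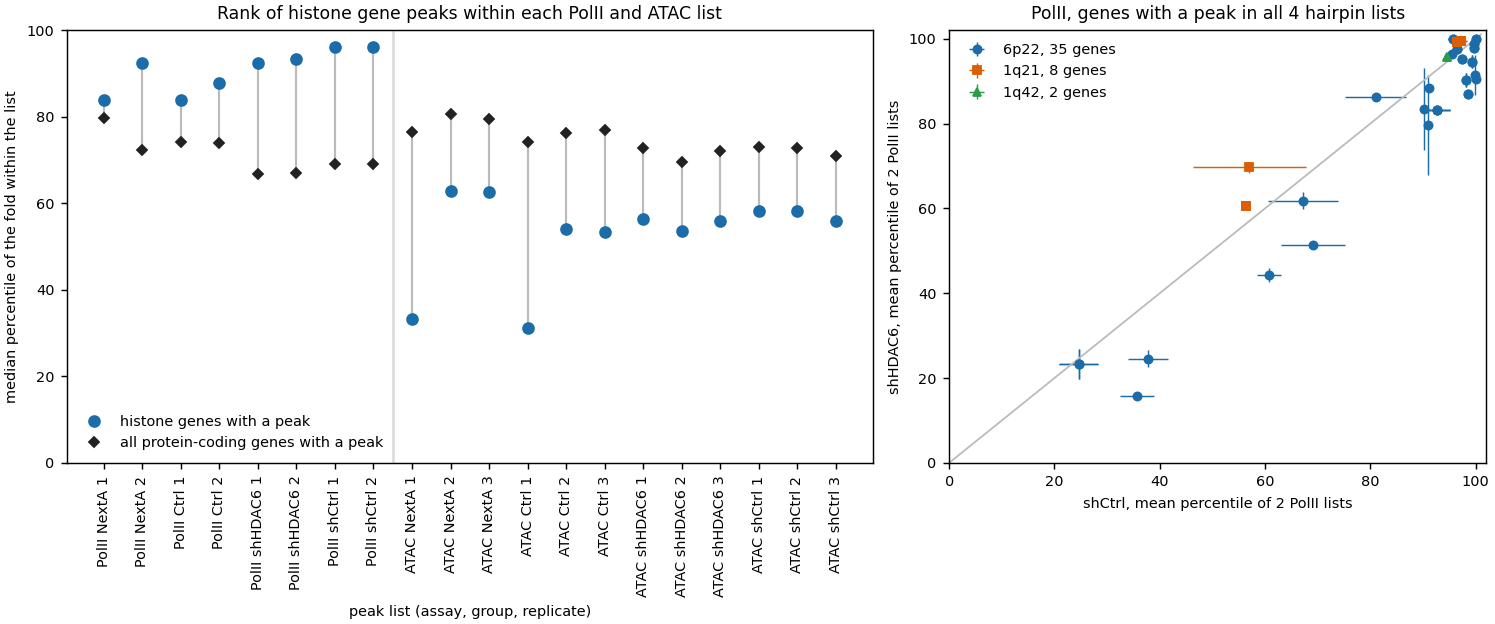
Left, the median percentile of the authors' fold within each PolII and ATAC list (0 to 100) for histone genes with a peak (circles) and all protein-coding genes with a peak (diamonds). Histone genes lie above all genes in the 8 PolII lists (83.9 to 96.2) and below them in the 12 ATAC lists (31.1 to 62.8). Right, the mean percentile over 2 shHDAC6 lists (y) against that over 2 shCtrl lists (x) for the 45 genes with a PolII peak in all 4, with bars from the lower to the higher list and a line of equality. All 8 genes of 1q21 lie above the line and 24 of 35 genes of 6p22 have both shHDAC6 values below both shCtrl values.

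Peaks sat where the genes begin. Averaged over lists, PolII cover was highest 100 bp into the gene, where 60.5% of the 63 genes with a known strand lay under a peak, and ATAC cover was highest at the start itself, at 56.9%. For 53 genes the median ATAC summit lay 76.5 bp before the start, and it was upstream for 39 of them. Pan-acetyl peaks of NextA cells had another shape, with 38.9% of genes covered 400 bp into the gene and 25.4% at the start, against 3.97% at the highest point and 2.38% at the start in Ctrl cells. HDAC6 peaks covered no gene in NextA cells and 34.9% at 100 bp in the 4 control lists of ChIP and CUT&Tag.

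**Figure D2:**
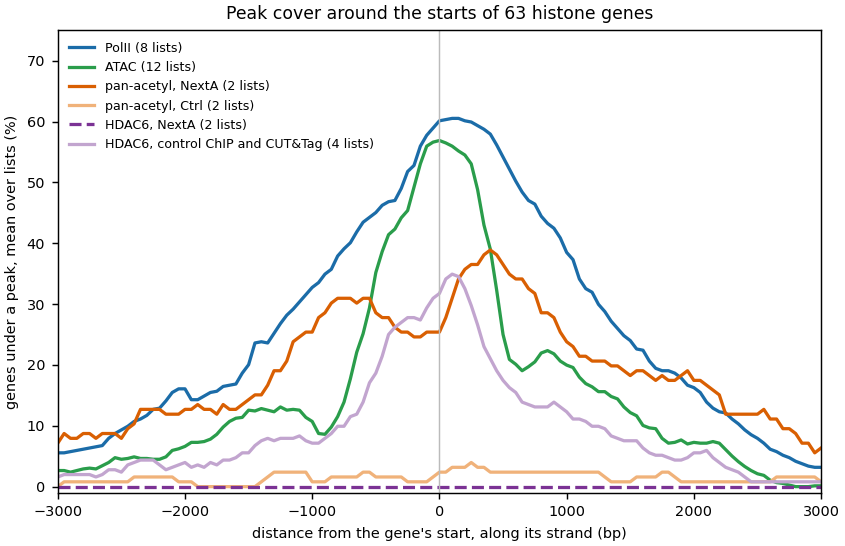
Percent of 63 histone genes that lie under a peak (y, mean over the lists of a set) at each distance from the gene's start along its strand (x, in bp). PolII peaks at 60.5% and ATAC at 56.9% near the start, pan-acetyl in NextA lists at 38.9% within the gene with a dip to 25.4% at the start, and HDAC6 NextA stays at 0.

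The number of lists with a peak varied widely among the genes, with a median of 19 of the 32 lists, 14 genes in 4 or fewer and 0 in every list. PolII peaks were present in all 8 lists at 31 genes (45.6%, against 57.5% of all genes) and ATAC peaks in all 12 lists at 27 (39.7%, against 54% of all genes), with 26 genes in both sets. H2BC5, an H2B gene at 6p22 (chromosome 6, 26158121 to 26171349), had a peak in 27 of 32 lists, and H2AC12, H2BC12, H4C8 and H2BC17 in 26 each. H2BC5 is 13229 bp long as annotated, and its PolII peak is also that of the neighbouring linker histone gene H1-4. At 1q21, H2BC18 and H2AC21 had peaks in 25 lists, H2AC20 and H2BC21 in 24 and H3C13 in 21. H2BC18 is annotated over 29682 bp (chromosome 1, 149782689 to 149812370), so its window takes in peaks far from its start.

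At the other end, H4C6, H2BC9, H3C8 and H2BC10 had no peak in any of the 32 lists. H1-1, H1-6, H3C11, H4C13, H4C7 and H4C9 had a peak in 1 list each, H2AC1, H2BC1 and H2BC6 in 2 and H1-5 in 4. H1-6, H2AC1 and H2BC1 encode testis histones, and the peaks of H2AC1 and H2BC1 were in the replicate 1 ATAC lists of NextA and Ctrl cells. All 14 of these genes lie at 6p22, and neither PolII nor ATAC marked 8 genes in any list. PolII was in none of its lists at 16.2% of histone genes, beside 21.7% of all genes. ATAC was in none at 16.2%, beside 13.3%. Genes without these marks are thus about as frequent among all genes, and the share of all genes in 4 or fewer of the 32 lists was not counted. H4C6, H2BC9, H3C8 and H2BC10 lie between H1-3 and H4C8, both of which had PolII and ATAC peaks, together with H4C7 and H3C7, as the map of all genes and lists shows.

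**Figure D3:**
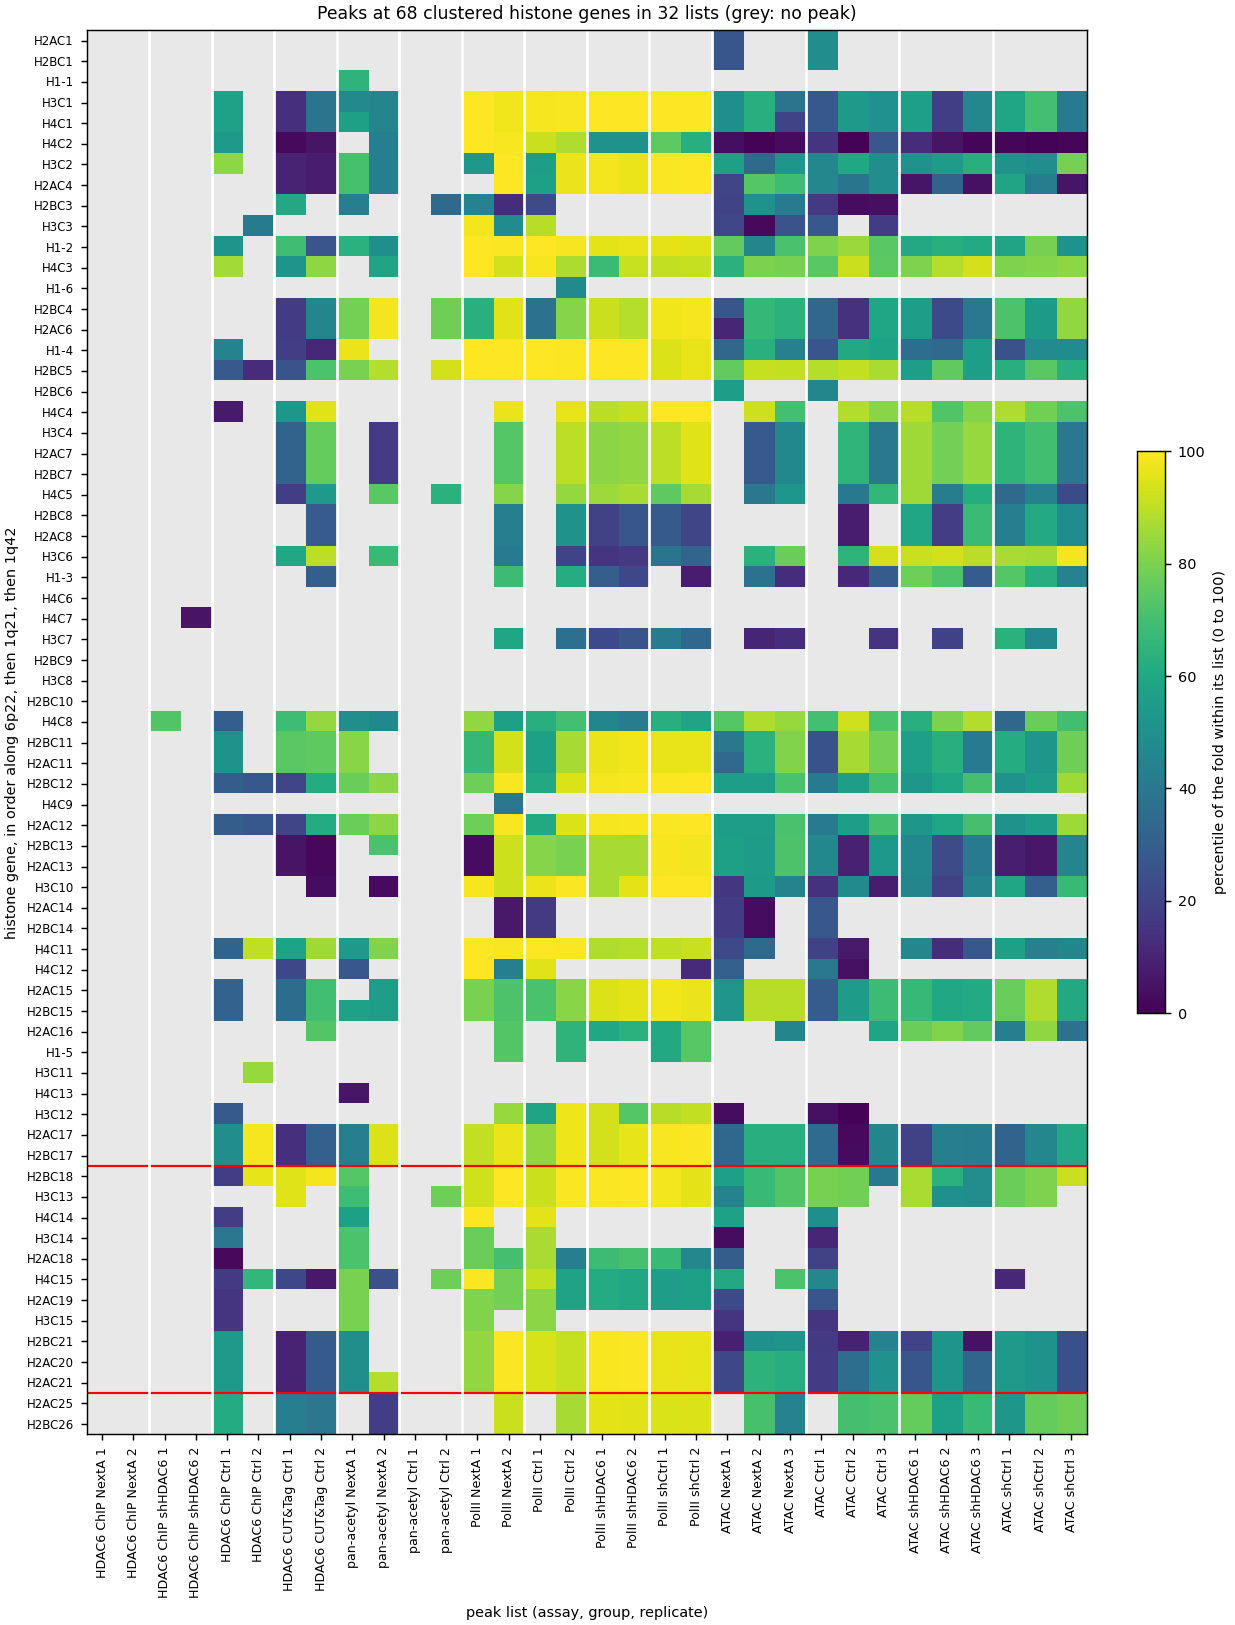
Each row is 1 of the 68 histone genes in order along 6p22, 1q21 and 1q42 (separated by lines) and each column 1 of the 32 lists. Colour gives the percentile (0 to 100) of the highest fold of a peak at the gene within that list, and grey means that no peak was called. PolII columns are bright in most rows, the HDAC6 NextA columns are empty, and the replicate 1 columns of PolII and ATAC in NextA and Ctrl cells have gaps from H4C4 to H3C7.

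By role, the linker histone genes differed among themselves. H1-2 and H1-4 had PolII in all 8 lists and ATAC in all 12. Of the other H1 genes, H1-3 lacked both in the replicate 1 lists of NextA and Ctrl cells and also lacked PolII in 1 shCtrl list. H1-5 had no ATAC peak and had PolII in 4 lists, with the same fold there as its neighbour H2AC16. H1-1 and H1-6 had nearly no peaks. Of the core histone genes, 10 of 17 H2A, 9 of 18 H2B, 4 of 13 H3 and 6 of 14 H4 genes had PolII in all 8 lists. The median share of genes with PolII over lists was 50% for H1, 88.2% for H2A, 66.7% for H2B, 61.5% for H3 and 57.1% for H4. For ATAC the medians were 50% for H1, 76.5% for H2A, 66.7% for H2B, 53.8% for H3 and 50% for H4. These differences between families were not tested, since genes of a family share peaks and copies.

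The comparison of 6p22 with 1q21 depended on the lists, the window and the near-identical copies. In PolII lists the share of genes with a peak was on average 64.3% ± 9.47 at 6p22 and 79.5% ± 12.6 at 1q21 (SD, n = 8 lists), a mean difference of -15.2 percentage points, with 1q21 higher in 7 of 8 lists (exact permutation test by sign flips over lists, two-sided, p = 0.03125, smallest possible 0.0078125). This call was lost when the gene body was taken without flanks (-3.41 points, with 6p22 higher in 6 of 8 lists, exact p = 0.727) and without the replicate 1 lists of NextA and Ctrl cells (-3.94 points, exact p = 0.125). In ATAC lists the shares were 62.6% ± 1.81 at 6p22 and 54.5% ± 21.9 at 1q21 (n = 12), 8.03 points higher at 6p22 (10 of 12 lists, exact permutation p = 0.255). The 2 lists with 1q21 higher were the replicate 1 lists of NextA and Ctrl cells. Without them, a choice made after the values were seen, the share was 17.6 points higher at 6p22 (10 of 10 lists, exact permutation p = 0.00195). That p is the smallest possible and was fixed by the choice, so no conclusion is drawn from it. Leaving out the near-identical genes of both clusters left 53 genes at 6p22 and 5 at 1q21. The ATAC direction then turned to -33.8 points, with 1q21 higher in all 12 lists (exact permutation p = 0.000488, the smallest possible). The PolII difference grew to -36.1 points, with 1q21 higher in all 8 (exact permutation p = 0.0078125, the smallest possible). The lists share a cell line, and without copies 1q21 is represented by 5 genes. These share PolII peaks, H2BC18 with H3C13, and H2BC21 with H2AC20 and H2AC21, so they are fewer than 5 independent loci. At 6p22, 11 genes had no PolII peak and 11 no ATAC peak in any list. The same loci thus set the sign in list after list, and the smallest possible p follows from that. The tests speak of the lists and not of other genes, and no conclusion about the clusters is drawn from them.

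The 6 near-identical genes and the other 5 of 1q21 behaved differently across lists. The 5 genes of 1q21 that have no such copy, on the shared peaks named above, carried PolII in 5 of 5 cases in all 8 lists. They carried ATAC in 5 of 5 cases in 10 lists and 4 of 5 in 2. The 6 near-identical genes carried ATAC in 6 of 6 cases in the replicate 1 lists of NextA and of Ctrl cells and in 0 or 1 in the other 10 lists. For PolII they were marked in 6 of 6 in those replicate 1 lists and in 3 of 6 in the other 6 lists. Neither HDAC6 (-4.55 points over 8 lists, exact permutation p = 0.875) nor pan-acetyl (-10.5 points over 4 lists, exact permutation p = 0.75, smallest possible 0.125) gave a call between the clusters.

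**Figure D4:**
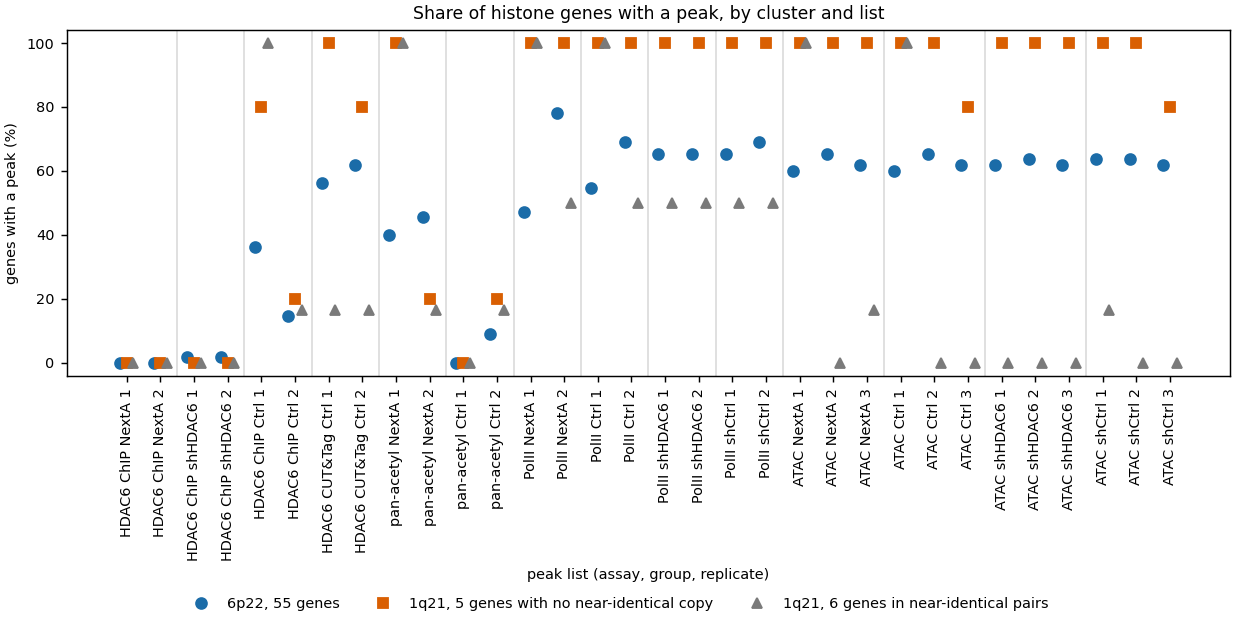
Percent of genes with a peak (y) in each of the 32 lists (x) for the 55 genes of 6p22 (circles), the 5 genes of 1q21 with no near-identical copy (squares) and the 6 in near-identical pairs (triangles). In PolII and ATAC lists the squares stay at 80% or 100%, while the triangles reach 100% in replicate 1 lists of NextA and Ctrl cells and 50% or less in the other PolII and ATAC lists.

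The same replicate 1 lists lacked peaks over a stretch of 6p22. From H4C4 to H3C7 (chr6:26188710-26250635, 61.9 kb) lie 12 histone genes, which were singled out after their values were seen. In the replicate 1 lists of NextA and Ctrl cells 0 of the 12 had a PolII peak and 0 an ATAC peak, against 9 or 10 with PolII in the other 6 lists and 8 to 10 with ATAC in the other 10. The neighbouring 60 kb on the left held 2 PolII peaks in each of these replicate 1 lists, against 3 in the others, and 4 to 7 ATAC peaks, against 3 to 5. On the right they held 1 PolII peak each, against 2 or 3, and 5 to 8 ATAC peaks, against 2 to 5. H2BC6, 4.95 kb before the stretch, had an ATAC peak in the replicate 1 lists of NextA and Ctrl cells and in none of the other 10. Over all 68 genes, 9 (13.2%) had no ATAC peak in those lists and a peak in every other list, against 1.2% of all genes, and 12 (17.6%) had this pattern for PolII, against 6.45%. The pair at 1q42, H2AC25 and H2BC26, was among them. The pattern had the same direction in NextA and Ctrl cells. These replicate 1 lists were called on q with complete peak numbering, and the other PolII and ATAC lists on p with gaps. Both CUT&Tag lists were also called on q with complete numbering. They had HDAC6 peaks at 6 and 9 of the 12 genes and at 1 of the 6 near-identical genes of 1q21. Of other lists called on q, pan-acetyl NextA list 1 marked 0 of the 12 genes and 6 of 6 copies. The HDAC6 Ctrl CST list marked 1 of the 12 genes and 6 of 6 copies. The part of calling in the pattern was not tested.

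**Figure D5:**
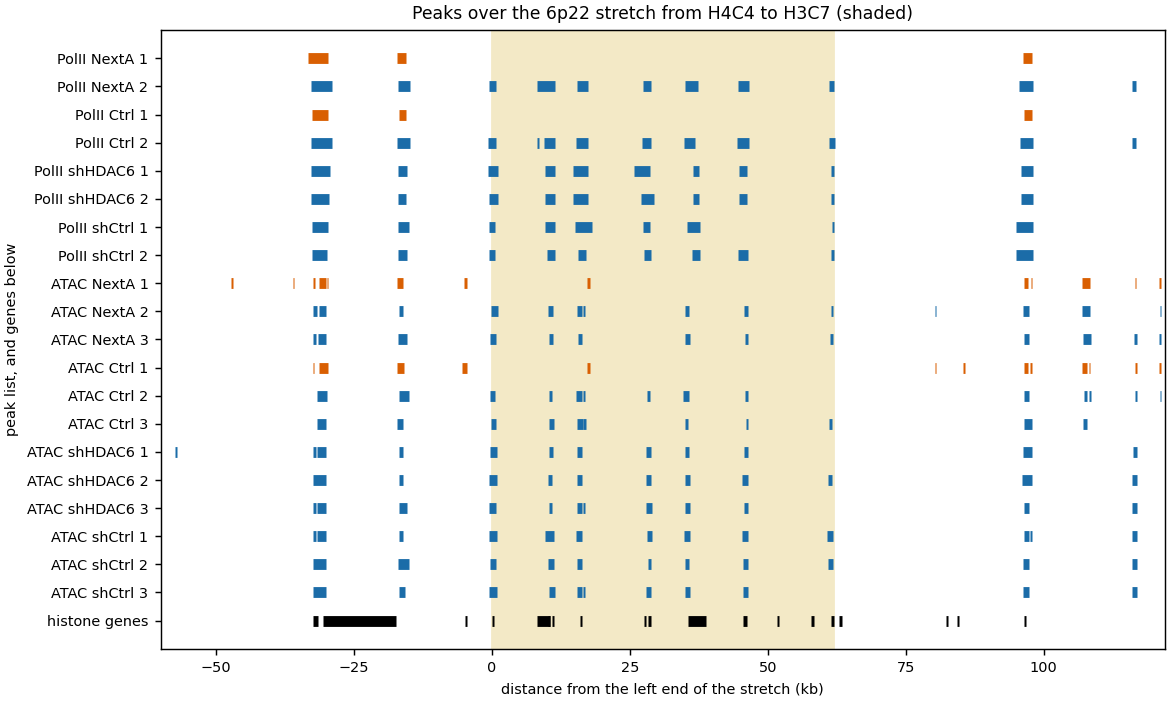
Peaks (bars) of the 20 PolII and ATAC lists around the stretch from H4C4 to H3C7 (shaded), as distance in kb from its left end, with histone genes at the bottom. Replicate 1 lists of NextA and Ctrl cells are orange and the others blue. The 2 orange PolII rows have 0 peaks in the shaded stretch and the 2 orange ATAC rows 1 each, against 6 to 8 in the blue PolII rows and 6 or 7 in the blue ATAC rows.

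The first treatment comparison asked whether NextA changed HDAC6 at these genes. HDAC6 ChIP peaks were present at 0 histone genes in both NextA lists, against 32 (CST antibody) and 10 (Novus) in Ctrl lists, so groups did not overlap. Over all protein-coding genes 6.39% and 0.671% had a peak in NextA lists, against 63.8% and 54.1% in Ctrl lists, which did not overlap either. The means were 0 in NextA lists and 21 ± 15.6 in Ctrl lists (SD, n = 2 each, two-sided exact permutation p = 0.33, the lowest value that 2 lists against 2 can reach). The 2 lists of each group differ in antibody, so this SD spans both antibodies and is not a spread between like replicates. Of the 68 genes, 8 had a peak in both Ctrl lists and in no NextA list, beside 35.6% of all protein-coding genes 1.29% of the other genes of at most 1000 bp and 88% of the 8065 genes with a peak in both Ctrl lists, and 0 were gained, beside 0% of all genes. The 8 lost genes thus were all 8 that could be lost. They were the divergent pair H2AC17 and H2BC17, H4C11, the pair H2AC12 and H2BC12, and H2BC5 at 6p22, with H2BC18 and H4C15 at 1q21. The lists differ in length, with 3256 and 235 peaks in NextA cells and 28590 and 63833 in Ctrl cells, and with lists cut to equal length 0 histone genes had a peak in the Ctrl lists either, so that none could be lost. Without the Ctrl Novus list 32 genes were lost, and with gene bodies alone 4. Leaving out the NextA Novus list, whose peak names go against its label, could not change the count of 8. Libraries pool cells of all cycle phases, so fewer cells with a mark and less of it per cell cannot be told apart.

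H2BC17, with H2AC17 on the same peaks, had no HDAC6 peak in either NextA list. In Ctrl cells its HDAC6 peak stood at percentile 49.4 in the CST list and 98.5 in the Novus list, and at 13.5 and 30.8 in the CUT&Tag lists. H2BC18 had no HDAC6 peak in NextA lists, and in Ctrl cells it stood at percentile 18.7 in the CST list, 96.2 in the Novus list and 95.2 and 98.3 in the CUT&Tag lists. H2BC12 and H2AC12, which share their peaks, stood at percentile 29.4 in the CST list, 27.4 in the Novus list and 21.01 and 61.5 in the CUT&Tag lists. HDAC6 marked 39 and 41 histone genes in the CUT&Tag lists, and 36 were in both (52.9%, against 44.3% of all genes). In all 4 control HDAC6 lists there were 8 (11.8%, against 26.2% of all genes), the same 8 genes that were lost. In none of the 4 were 16 (23.5%, against 17.9% of all genes). Among the 36 in both CUT&Tag lists were 11 of 17 H2A, 11 of 18 H2B, 8 of 14 H4, 4 of 13 H3 and 2 of 6 H1 genes.

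After knockdown, HDAC6 ChIP with the Novus antibody marked 1 histone gene in each shHDAC6 list, against 10 in the Ctrl list made with that antibody. The genes were H4C8 in the first shHDAC6 list, at percentile 72.8, and H4C7 in the other, at percentile 5.26, and neither had a peak in the Ctrl Novus list. There was 1 Ctrl list with this antibody and none from shCtrl cells, so no test was made. The shHDAC6 lists held 16441 and 12152 peaks, and the Ctrl list 63833. Of all protein-coding genes, 24.6% and 18.1% had a peak in the shHDAC6 lists, against 54.1% in the Ctrl Novus list.

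The next comparison asked whether NextA changed acetylation. Pan-acetyl peaks were present at 33 and 29 histone genes in NextA lists, against 0 and 7 in Ctrl lists, and the groups did not overlap (31 ± 2.83 against 3.5 ± 4.95, SD, n = 2 each, exact permutation p = 0.33). Over all protein-coding genes the shares were 67.8% and 60.04% in NextA lists, against 7.03% and 43.3% in Ctrl lists, and did not overlap either. A peak in both NextA lists and no Ctrl list was found at 13 genes (19.1%), beside 17.7% of all protein-coding genes and 32.7% of those with no Ctrl peak, and 0 were lost, beside 0%. Other genes of at most 1000 bp were gained in 2.59% of cases, but fewer of them carried PolII or ATAC peaks. The gained genes were H2BC12, H2AC12, H2AC17, H2BC17, H4C11, H3C2, H2AC4, H1-2, H2BC15, H4C1, H4C8 and H3C1 at 6p22 and H2AC21 at 1q21. H2BC17, for example, stood at percentile 43.2 and 94.7 in the NextA lists and had no peak in Ctrl lists. H2BC5 stood at percentile 79.8 and 88.8 in NextA lists and at 93.3 in 1 Ctrl list, so it was not counted as gained.

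The Ctrl lists held 1418 and 41411 pan-acetyl peaks and the NextA lists 28473 and 61186, and with the same number of peaks from each list 0 histone genes were gained, with a mean of 1.5 histone genes marked in NextA lists and 0 in Ctrl lists. With all peaks, 24 genes were gained without NextA list 1 and 27 without NextA list 2. Cluster shares depended on the list: 6p22 had peaks at 40% and 45.5% of its genes in NextA lists, and 1q21 at 100% and 18.2%, against 0% and 9.09% at 6p22 and 0% and 18.2% at 1q21 in Ctrl lists. The change in the 6p22 minus 1q21 difference was -11.8 points (exact permutation p = 1).

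PolII and ATAC calls at these genes differed little with NextA. PolII peaks were at 37 and 53 genes in NextA lists, against 41 and 48 in Ctrl lists (45 ± 11.3 against 44.5 ± 4.95, exact permutation p = 1). No gene was lost or gained, beside 0.0951% and 0.31% of all genes. ATAC peaks were at 44, 43 and 42 genes in NextA lists, against 44, 43 and 40 in Ctrl lists (43 ± 1 against 42.3 ± 2.08, n = 3 each, exact permutation p = 0.9, smallest possible 0.1). No gene was lost or gained there either, beside 0.03% and 0.155% of all genes. H2BC17 stood at PolII percentile 90.9 and 97 in NextA lists, against 83.9 and 97.5 in Ctrl lists, with overlapping groups. H4C8, whose product is the core histone H4, stood at PolII percentile 84 and 57 in NextA lists, against 62.9 and 69.9 in Ctrl lists, again overlapping.

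Knockdown also left the number of marked genes nearly the same. PolII peaks were at 46 and 46 genes in shHDAC6 lists, against 46 and 48 in shCtrl lists (46 ± 0 against 47 ± 1.41, n = 2 each, exact permutation p = 1). The linker histone gene H1-5 was lost, beside 0.666% of all genes, and 0 were gained, beside 0.816%. Its peak, at percentile 60.6 and 73.8 in shCtrl lists, had the same fold as the peak of the neighbouring H2AC16. H2AC16 kept PolII in both shHDAC6 lists, at percentile 59.8 and 63.8. H1-5 was lost neither with the gene body alone nor with 1000 bp of flank. ATAC peaks were at 41, 42 and 41 genes in shHDAC6 lists, against 43, 42 and 40 in shCtrl lists (41.3 ± 0.577 against 41.7 ± 1.53, n = 3 each, exact permutation p = 1), with 0 lost and 0 gained, beside 0.22% and 0.195% of all genes.

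The rank of PolII peaks within the hairpin lists went different ways in the clusters, a comparison added after the values were seen. At 6p22, 35 genes had PolII in all 4 lists, with a median percentile of 91.9 and 91.2 in shHDAC6 lists, against 96.5 and 96.8 in shCtrl lists. At 1q21, 8 genes had PolII in all 4, with a median of 99.1 and 99.2 in shHDAC6 lists, against 96.6 and 96.1 in shCtrl lists. The median over all genes with PolII in the 4 lists was 67.8 and 67.9 in shHDAC6 lists, against 70.2 and 70.0 in shCtrl lists. The 6p22 minus 1q21 difference was -7.66 ± 0.572 in shHDAC6 lists and 0.298 ± 0.546 in shCtrl lists, which did not overlap (SD, n = 2 each, exact permutation p = 0.33, the smallest possible). With equal list length it was -7.67 in shHDAC6 lists and 0.325 in shCtrl lists.

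Both shHDAC6 percentiles lay above both shCtrl percentiles at 8 of 8 genes of 1q21, 2 of 2 at 1q42 and 4 of 35 at 6p22. The share was 35.9% of the 13317 protein-coding genes with PolII in all 4 lists. Both lay below at 24 of 35 genes of 6p22 and 0 at 1q21, beside 42.7% of those 13317 genes. Such separation was thus common among all genes with these peaks. At equal list length 42.4% of such genes lay above and 36.4% below, with 5 of 35 genes of 6p22 above and 24 below. The 8 genes of 1q21 held 4 distinct ranks, since H2BC21, H2AC20 and H2AC21 share a peak, as do H2BC18 with H3C13 and H4C15 with H2AC19. H2BC21, H2AC20 and H2AC21 stood at percentile 99.1 and 99.2 in shHDAC6 lists, against 96.6 and 96.4 in shCtrl lists. The near-identical genes among the 8, whose peaks are uncertain, stood lower. H2AC18 stood at 68.4 and 70.9 in shHDAC6 lists, against 67.8 and 46.2 in shCtrl lists. H4C15 and H2AC19 stood at 61.7 and 59.6, against 56 and 56.9. The 4 genes of 6p22 that lay above were H1-4, H2BC5, H2BC11 and H2AC11. H1-4 and H2BC5 stood at percentile 99.98 in both shHDAC6 lists, against 94.7 and 96.8 in shCtrl lists. H4C4, an H4 gene, stood at 89.8 and 91.2 in shHDAC6 lists, against 99.96 and 99.99 in shCtrl lists. H2BC17 stood at 93 and 96.2 in shHDAC6 lists, against 99 and 99.5 in shCtrl lists. Among 31 histone genes with PolII in all 4 NextA and Ctrl lists, 1 (H4C2) had both NextA percentiles above both Ctrl percentiles and 0 below. Of the 11813 protein-coding genes with such peaks, 14.8% lay above and 9.69% below.

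ATAC ranks showed no such order between the clusters. Among 40 histone genes with ATAC in all 6 hairpin lists, 3 (H3C4, H2AC7 and H2BC7, on a common peak) had every shHDAC6 percentile above every shCtrl percentile. Below lay 0, and the shares were 6.1% and 6.41% of the 11630 protein-coding genes with such peaks. With NextA, 3 of 28 (H2BC3 and the pair H2BC13 and H2AC13) lay above every Ctrl percentile and 0 below. The shares were 5.28% and 1.26% of the 12643 protein-coding genes with ATAC in all 6 NextA and Ctrl lists. At equal list length the NextA order turned round, with 0 of 8 histone genes above and 1 below, beside 1.85% and 3.07% of 10082 such genes. The changes in the 6p22 minus 1q21 difference of median ATAC percentile were -4.07 with NextA (exact permutation p = 0.7) and 5.74 with knockdown (exact permutation p = 0.9).

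Other genes of the pathway were read in the same way, beside the 57.5% of all genes with PolII and 54% with ATAC in every list. Of 23 genes for transcription and mRNA processing of histone genes, including NPAT, HINFP, SLBP and LSM11, 21 had PolII in all 8 lists and 19 ATAC in all 12. All 16 genes for histone chaperones and import, such as NASP and ASF1B, had both in every list. Of 14 replication-independent histone genes, 11 had PolII in all lists and 8 ATAC, while H3-5 and H2BC12L had neither in any list. Pan-acetyl peaks were gained with NextA at 7 of these 14 (H1-10, H2AZ1, H2AZ2, H2AJ, H3-3A, H3-3B and H4C16), at 4 of 16 chaperone genes (DAXX, NAP1L4, SPTY2D1 and IPO5) and at 1 of 23 processing genes (HINFP), beside the 17.7% of all genes. HDAC6 peaks were lost with NextA at 4 of 14 (H2AX, H2AZ2, MACROH2A1 and CENPA), at 9 of 16 and at 10 of 23, among them NPAT, beside the 35.6% of all genes. Of the genes with a peak in both Ctrl lists these were 4 of 4, 9 of 10 and 10 of 12, beside 88% of all such genes.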

How the data were processed

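Peak lists of 32 of 41 samples were used, 1 list per sample; the other 9, without a list of their own, were not analysed here. Per the submitters' processing notes the tools were MACS2 2.2.7.1, Bowtie2 2.4.4, ChIPseeker 1.28.2, Trim Galore 0.6.7, SAMtools 1.13 and deepTools 3.5.1, with no role given, and the build hg38. The authors' deposited columns are a linear fold per peak (a ratio to local background), its −log10 p and −log10 q, and a score of 10 times one of these, by which the list was called. Read depth is not given, so precision is limited by the number of lists.

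A gene had a peak where at least 1 bp of a peak overlapped it or 500 bp on either side. It took the highest fold of its peaks, as a percentile of the list. Lost means a peak in every control list and no treated list, gained the reverse. Gene positions and promoters came from RefSeq tables. Groups were compared by two-sided exact permutation over lists, and 6p22 with 1q21 by exact sign flips over lists, with Python 3.11.15, numpy 2.4.6, pandas 2.3.3, scipy 1.17.1 and matplotlib 3.10.9; the code was tested on simulated data. Near-identical promoters were those at least 95% alike.

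Alternatives were 0 or 1000 bp of flank, 200 bp of overlap, a minimum −log10 q of 5, lists cut to equal length, merged windows, leaving out each list, near-identical genes left out, and the replicate block. Named were all lost and gained genes (the 10 highest by percentile where over 10; here all 13 are given), the 5 genes of each cluster with peaks in most lists, those with peaks in 4 or fewer, both genes of 1q42 and the testis variants; other names were chosen after their values were seen. The members and gene lists were chosen with earlier results of these data known. Same-numbered ATAC lists of NextA and Ctrl cells deviated together (correlations across genes of 0.541, 0.221 and 0.228), which met the criterion for pairing of over 0.1 in every pair. Lists numbered 2 and 3 correlated as well across numbers (0.228 and 0.206). Replicate 1 is therefore set apart and numbers 2 and 3 are not told apart. PolII lists (0.674) and pan-acetyl lists (0.178) of NextA and Ctrl cells also met the criterion. HDAC6 lists (0.0653) and the hairpin lists did not.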

Additional observations from a re-analysis of the deposited data

How the results depend on the processing

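Of the values recomputed under alternatives, 219 kept direction and side of the threshold or stayed close, 34 moved, 27 changed direction, 5 fell short of the threshold and 1 newly passed it. Tests of treatment could not change side with so few lists, and counts of 0 that stayed 0 are among the 219, so this tally is no measure of robustness. Where a value below moved, the cause was not tested, and fewer peaks or genes entered under the stricter settings. With gene bodies alone, 4 genes lost HDAC6 with NextA; the PolII count and cluster difference for shHDAC6 minus shCtrl were 0 with 0 lost; ATAC counts changed by 0 with NextA and by 1 with knockdown, 1 gained; and the PolII difference between clusters within lists was -3.41. With 1000 bp of flank these were 0 lost for PolII with knockdown, a change of 0 in ATAC with NextA, 6.06 points for the ATAC cluster share with knockdown, and -13.4 points within PolII lists. With 200 bp of overlap PolII with knockdown changed by 0, with 0 lost and a share of 0, ATAC with knockdown by 0.667 with 1 gained, and the PolII clusters differed by -2.73 points. Merged windows gave -10.9. At −log10 q of at least 5 the HDAC6 change, losses and share were 0, the pan-acetyl gains 0 with a share of 0.909, the PolII NextA change and share 0, and the ATAC knockdown change 3.67 with a share of 3.03; within lists the clusters differed by 3.18 for HDAC6 and 0.455 for pan-acetyl. At equal list length the HDAC6 change, losses and share were 0, pan-acetyl gains 0 with a share of 2.73, PolII NextA -1.5 with a share of -2.73, PolII knockdown gains 1, ATAC NextA -2.67, and ATAC knockdown 0.33 with a share of 0.606.

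Without near-identical genes the ATAC clusters differed by -33.8 points, and by -33.7 without the 12 genes from H4C4 to H3C7 as well. Without the replicate 1 lists of the inhibitor experiment, an alternative added after seeing the data, they differed by 17.6 points (exact permutation p = 0.00195, fixed by that choice) and the PolII clusters by -3.94. Leaving out 1 list at a time, the change in the number of genes lay between -32 and -10 for HDAC6, 24 and 31 for pan-acetyl, -7.5 and 8.5 for PolII and -0.5 and 1.5 for ATAC with NextA, and -2 and 0 for PolII and -1.17 and 0.33 for ATAC with knockdown. HDAC6 losses were 8 to 32 (32 without the Ctrl Novus list) and pan-acetyl gains 13 to 27 (24 without NextA list 1, 27 without NextA list 2). PolII losses were 0 to 2 and gains 0 to 3 with NextA, and losses 1 to 2 and gains 0 to 1 with knockdown. With NextA the change in cluster share ranged over 3.64 to 54.5 (HDAC6), -55.5 to 31.8 (pan-acetyl), -28.2 to 30.0 (PolII) and -27.0 to 11.8 (ATAC), and with knockdown over -3.64 to 0 (PolII) and -4.85 to 3.33 (ATAC). With the replicate block, pairing lists by number, the change was -21 for HDAC6 (exact p = 0.5) and 27.5 for pan-acetyl (exact p = 0.5), and the block changed no call. With 2 or 3 lists per group no exact test could pass 0.05.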
